A study of Saccharomyces cerevisiae EC1118 with 12 samples.

Results

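The genes described are 30 antioxidant and redox genes of Saccharomyces cerevisiae, taken from a fixed list of gene symbols that leaves out the peroxiredoxins. All 30 were measured, among 5449 genes in all, each by 1 probe set, and 28 of them lay above the lowest 25% of genes by mean level. The exceptions, called dim here, were CTA1 and SRX1. The list covers thioredoxins, glutaredoxins and glutathione enzymes, superoxide dismutases, catalases, a pair of regulators, and enzymes that repair oxidised proteins or remove nitric oxide.

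RNA came from EC1118, a commercial wine yeast, held at steady state in chemostats on a synthetic grape must modified so that nitrogen was limiting, kept at pH 3.5 and diluted at 0.1 per hour. All cultures shared strain, medium, pH and growth rate, and they differed in the sparging gas: nitrogen alone (anaerobic) or a mixture with 1%, 5% or 20% oxygen, with 3 arrays in each group. The sample titles carry the numbers 0, 1.2, 2.7 and 5 without a unit, read here as micromolar dissolved oxygen. The condition text gives 0.8, 4 and 11 micromolar dissolved oxygen for the oxygenated groups. On that reading the labels disagree, so the groups are named by the gas. The probes of the array follow the genome of a laboratory strain, and the effect of sequence differences in EC1118 was not tested. In such bulk RNA, fewer cells of a kind and less RNA per cell cannot be told apart. The comparison asks which defences follow oxygen in cells that have adapted to it.

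Yeast removes superoxide with a copper-zinc dismutase in the cytosol and a manganese dismutase in the mitochondrial matrix, and removes the hydrogen peroxide this makes with catalases, cytochrome c peroxidase and thiol peroxidases. Thioredoxin and glutathione, kept reduced with NADPH, restore thiol enzymes and oxidised proteins. The factors Yap1 and Skn7 induce many of these genes upon peroxide stress, while catalase T also belongs to the general stress response.

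Genes that report the oxygen state separated anaerobic cultures from those at 5% and 20% oxygen. Of 7 such genes 6 were called at 20% oxygen, where 7.91% of all genes were called, and 5 of them fell, among them the anaerobic cell wall gene DAN1 (-5.39 ± 0.90) and the heme synthesis gene HEM13 (-4.63 ± 0.41), and the aerobic cytochrome oxidase gene COX5A rose (1.84 ± 0.33). At 5% oxygen 5 of the 7 were called, and at 1% HEM13 alone. Between 20% and 1% oxygen 2 of 7 were called, and 0 of 7 between 5% and 1% or between 20% and 5%, with 4 and 5 at an unadjusted p under 0.05 (limma). Differences are log2 differences of group means ± the standard error of the fit. Each array correlated at 0.940 to 0.992 with the mean of its group's other arrays. A pair of arrays stood high in 13 general stress genes. All 13 were highest of their group in anaerobic array 1, and 12 in 1% oxygen array 3. All 13 were lowest of their group in 5% oxygen array 3, and 10 in anaerobic array 2, against 38.4% and 29.7% of all genes. Of the 30 defence genes, 18 were highest of their group in anaerobic array 1 and 21 in 1% oxygen array 3, against 29.5% and 46.9% of all genes.

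Few of the defence genes differed between oxygen levels beyond the spread of the arrays. At 20% oxygen against anaerobic, 0 of 30 were called at an adjusted p under 0.05 by limma, where 7.91% of all genes were called, and 4 of 30 had an unadjusted p under 0.05 (GRX8, SOD1, CCS1 and YHB1), a share of 13.3% against 24.96% of all genes. At 5% oxygen 2 of 30 were called, GSH1 and CTA1, both lower, where 16.3% of all genes were called and 11% were called lower. At 1% oxygen 2 of 30 were called, GRX6 and MXR2, both higher, where 16.4% of all genes were called and 5.27% were called higher. These 3 comparisons share the anaerobic arrays.

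Among the oxygenated groups no defence gene was called. Between 5% and 1% oxygen 0 of 30 were called, as were 0% of all genes, with 0 members at an unadjusted p under 0.05 against 4.86% of all genes. Between 20% and 5% oxygen 0 of 30 were called, again beside 0% of all genes, with 1 member (3.33%) at an unadjusted p under 0.05 against 2.73% of all genes. Between 20% and 1% oxygen 0 of 30 were called beside 0.367% of all genes, with 6 members (20%) at an unadjusted p under 0.05 against 14.3% of all genes. A moderated F test for any difference between the 4 groups called 0 of 30 beside 10.1% of all genes, and 8 had an unadjusted p under 0.05, or 26.7% against 29.7% of all genes. A linear trend over the 4 levels in order called 1 of 30, CCS1, which was lower with more oxygen, beside 8.96% of all genes called and 4.96% called lower.

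The median difference of the 30 genes was -0.04 at 20% oxygen, 0.05 at 5% and 0.04 at 1%, against 0.05, 0.07 and 0.00 over all genes. For 19 of the 30 the 95% interval of the 20% oxygen difference lay within a 2-fold change in either direction, a share of 63.3% against 58.4% of all genes. The others, whose intervals reached beyond a 2-fold change, were TRR2, GRX5, GRX8, GSH1, GTT1, GTT2, CCS1, CTT1, SKN7, SRX1 and MXR1. Of these, GRX8 had an estimate of 1.25, itself beyond 2-fold. The intervals of GRX8 (0.39 to 2.11) and CCS1 (-1.32 to -0.27) left out 0. The arrays of the groups did not overlap for 8 of 30 genes at 20% oxygen, 10 at 5% and 5 at 1%, beside 34.2%, 47.7% and 44.5% of all genes.

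**Figure D1:**
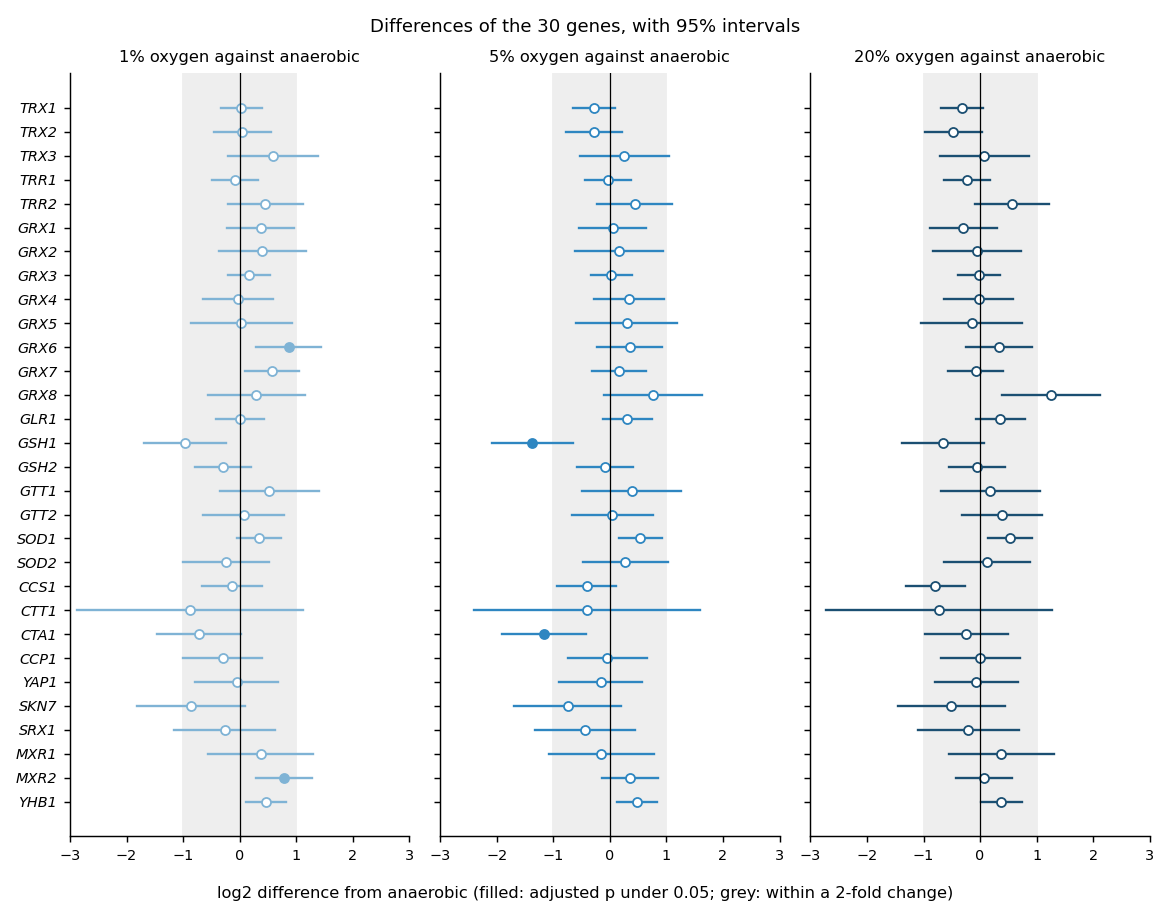
Log2 difference from anaerobic (horizontal axis) of the 30 genes (rows), in 1 panel each for 1%, 5% and 20% oxygen; circles are estimates of the fit, filled where called, and lines are 95% intervals. The 4 filled circles are GRX6 and MXR2 at 1% oxygen and GSH1 and CTA1 at 5%, and CTT1 has the widest intervals.

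Of the superoxide defences, SOD1 and CCS1 came close to the threshold, from opposite sides, without a call between any pair of groups. SOD1, the copper-zinc dismutase of the cytosol, read 11.90, 11.37 and 11.45 (log2 signal) on the anaerobic arrays, 11.92, 11.87 and 11.95 at 1% oxygen, 12.11, 12.16 and 12.07 at 5%, and 12.08, 12.18 and 12.05 at 20%. The 5% and 20% arrays lay above every anaerobic array, and the anaerobic array nearest to them was array 1. The difference was 0.53 ± 0.18 at 20% oxygen (adjusted p = 0.0852) and 0.54 ± 0.18 at 5% (adjusted p = 0.0554), neither of them called, with a 95% interval at 20% of 0.15 to 0.91. Without anaerobic array 1 the difference was called at 20%, at 0.69, and at 5%, at 0.70, and the 5% difference was also called without 1% oxygen array 3 and with quantile or median scaling or a trended prior. The trend of 0.18 ± 0.06 per step (adjusted p = 0.0648) was called without either of those arrays.

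CCS1, the chaperone that loads copper into Sod1, ran the other way. It read 8.40, 8.58 and 8.76 on the anaerobic arrays, 8.63, 8.72 and 7.97 at 1% oxygen, 8.21, 8.46 and 7.82 at 5%, and 7.98, 7.67 and 7.70 at 20%. All 20% arrays lay below all anaerobic arrays, and the group means stepped down at each level. Such steps down were seen in 1 of 30 members (3.33%), beside 3.19% of all genes. The trend was -0.27 ± 0.08 per step (adjusted p = 0.0492, limma), close to the threshold, and its call was lost on leaving out any array except 1% oxygen array 3 or 20% oxygen array 1 (adjusted p up to 0.159). At 20% oxygen the difference of -0.79 ± 0.24 was not called (adjusted p = 0.0651), and it was called without 1% oxygen array 3 (adjusted p = 0.0230).

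SOD2, the manganese dismutase of mitochondria, read 10.55, 8.95 and 9.12 on the anaerobic arrays and 9.77, 9.65 and 9.58 at 20% oxygen. The groups overlapped because anaerobic array 1 was the highest of all 12 arrays. The difference at 20% was 0.13 ± 0.35 (adjusted p = 0.874), and 0.63 without anaerobic array 1, still not called. At 5% oxygen it was 0.28 ± 0.35 (adjusted p = 0.629), and 0.78 and called without that array (adjusted p = 0.0489).

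**Figure D2:**
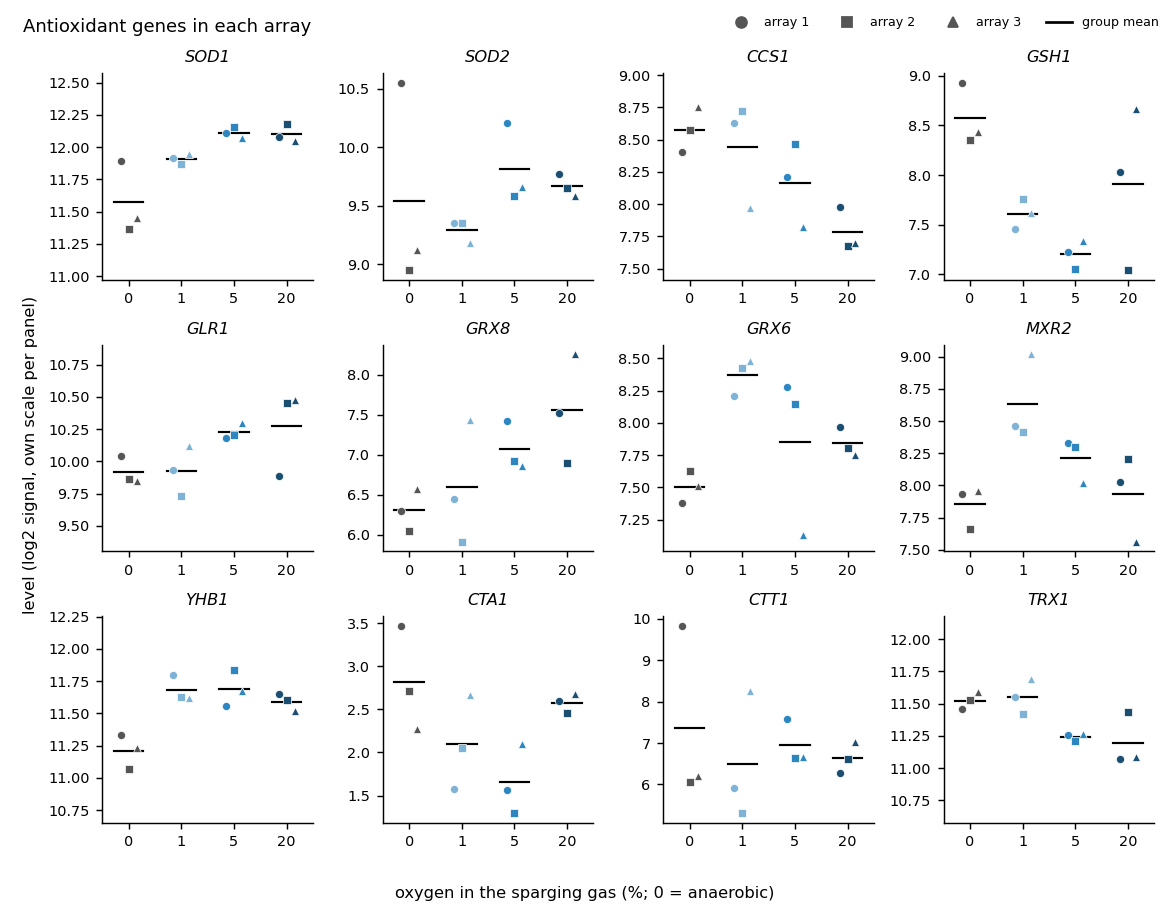
Level in log2 signal (vertical axis, own scale per panel) against oxygen in the gas (0, 1, 5 and 20%) for 12 of the genes; each symbol is 1 array and each bar a group mean of 3. SOD1 and YHB1 lie higher at 5% and 20% than in all anaerobic arrays, CCS1 lies lower at 20%, and anaerobic array 1 stands far above its partners for SOD2 and CTT1.

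Among the 5 members listed for glutathione synthesis, reduction and conjugation, the called change was in GSH1. It encodes the enzyme of the first and rate-limiting step of glutathione synthesis. Genes of glutathione turnover and transport, a separate list, are described further below. GSH1 read 8.93, 8.35 and 8.43 on the anaerobic arrays, 7.46, 7.76 and 7.62 at 1% oxygen, 7.23, 7.05 and 7.33 at 5%, and 8.03, 7.04 and 8.66 at 20%. All 1% and 5% arrays lay below the anaerobic ones, and the 20% arrays spread over the range of the other groups. GSH1 fell at 5% oxygen by 2.58-fold (-1.37 ± 0.33, adjusted p = 0.0168), a call that ended without anaerobic array 1, 5% oxygen array 1 or 5% oxygen array 2 (adjusted p up to 0.0666). The difference was -0.96 ± 0.33 at 1% oxygen (adjusted p = 0.0656), which was called without 20% oxygen array 2 or array 3, and -0.66 ± 0.33 at 20% (adjusted p = 0.241). Its trend over the levels was called only without 20% oxygen array 3 among the arrays left out in turn (-0.35 per step, adjusted p = 0.0453).

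The other members of this list of 5 were not called in any comparison. GSH2, which completes glutathione synthesis, differed by -0.06 ± 0.23 at 20% oxygen, with a 95% interval of -0.55 to 0.44. GLR1, the reductase that restores oxidised glutathione, read 9.89, 10.45 and 10.48 at 20% oxygen, against 10.04, 9.86 and 9.85 on the anaerobic arrays. A single 20% array overlapped them, and the difference was 0.36 ± 0.20 (adjusted p = 0.294). The glutathione transferase genes GTT1 and GTT2 differed by 0.18 ± 0.40 and 0.39 ± 0.33 at 20% oxygen.

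Of the 8 glutaredoxins, small thiol oxidoreductases that draw on glutathione, GRX6 alone was called, at 1% oxygen. GRX6, of the secretory pathway, read 8.21, 8.43 and 8.48 at 1% oxygen, against 7.38, 7.62 and 7.51 on the anaerobic arrays. It rose there by 1.82-fold (0.87 ± 0.26, adjusted p = 0.0450), and the call was lost on leaving out any array but 5% oxygen array 1 or 5% oxygen array 3 (adjusted p up to 0.116). At 5% and 20% oxygen it differed by 0.35 ± 0.26 and 0.34 ± 0.26 and was not called, and without 5% oxygen array 3, its lowest array at 7.13, it was called at 5% (0.71). GRX7, its partner in the secretory pathway, differed by 0.57 ± 0.22 at 1% oxygen (adjusted p = 0.0918).

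The largest estimate at 20% oxygen belonged to GRX8, a less studied member of the glutaredoxin family. It read 6.30, 6.05 and 6.57 on the anaerobic arrays, 6.45, 5.91 and 7.44 at 1% oxygen, 7.42, 6.93 and 6.86 at 5%, and 7.53, 6.90 and 8.26 at 20%. Its 5% and 20% arrays lay above all anaerobic arrays, and its group means stepped up with each level, as did those of GLR1. Such steps up were seen in 2 of 30 members (6.67%), beside 8.46% of all genes. The difference of 1.25 ± 0.40 at 20% was not called (adjusted p = 0.0736, 95% interval 0.39 to 2.11), nor was the trend of 0.42 ± 0.12 per step (adjusted p = 0.0546). Without 1% oxygen array 3 both were called, and the trend also without 20% oxygen array 2.

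GRX1 and GRX2, the dithiol glutaredoxins of the cytosol, differed by -0.30 ± 0.27 and -0.05 ± 0.36 at 20% oxygen. GRX3 and GRX4, which help the iron sensor Aft1 respond to iron, differed by -0.02 ± 0.17 and -0.03 ± 0.28. GRX5, which acts in mitochondrial iron-sulfur cluster assembly, differed by -0.15 ± 0.41. The interval of GRX3, from -0.39 to 0.35, was among the narrowest of the list.

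The thioredoxin system had no called member in any comparison. TRX1, a cytosolic thioredoxin, read 11.07, 11.44 and 11.09 at 20% oxygen, against 11.46, 11.53 and 11.59 on the anaerobic arrays. The 20% arrays all lay lower, by 0.33 on average (-0.33 ± 0.17, adjusted p = 0.256). TRX2, the other cytosolic form, differed by -0.47 ± 0.23 (adjusted p = 0.228), and TRX3, the mitochondrial form, by 0.07 ± 0.36. TRR1, the cytosolic thioredoxin reductase, differed by -0.23 ± 0.19, and TRR2, its mitochondrial counterpart, by 0.56 ± 0.30 (adjusted p = 0.275), with all 20% arrays above all anaerobic arrays. The trend of TRR2 was called without 1% oxygen array 3.

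The gene of the cytosolic catalase T, CTT1, had the largest standard error of the 30 genes. It read 9.84, 6.05 and 6.21 on the anaerobic arrays, 5.92, 5.30 and 8.26 at 1% oxygen, 7.58, 6.63 and 6.67 at 5%, and 6.28, 6.63 and 7.03 at 20%. Its high readings were anaerobic array 1 and 1% oxygen array 3, the arrays in which the general stress genes stood high. The difference at 20% oxygen was -0.72 ± 0.92 (adjusted p = 0.700), with an interval of -2.72 to 1.28, and it was 0.52 without anaerobic array 1, so its sign rested on that array. CTT1 was not called in any comparison, with or without single arrays.

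Within groups, CTT1 followed the general stress genes closely. Each array's deviation from its group mean was taken in CTT1 and in the mean of the 13 stress genes. These deviations correlated with Pearson's r = 0.948 and Spearman's rho = 0.916 over 12 arrays. Both deviations of an array come from the same RNA and hybridisation, and those of a group sum to 0. Without anaerobic array 1 and 1% oxygen array 3 the values were 0.859 and 0.867 over 10 arrays. For GRX2 r was 0.920 over 12 arrays and 0.757 over 10, and for GTT1 0.867 and 0.757. It was 0.826 and 0.698 for TRR2, 0.816 and 0.528 for GRX1, and 0.812 and 0.612 for TRX2. SOD1 had 0.740 and 0.610, and GRX7 0.717 and 0.622. These genes and CTT1 had the highest r over 12 arrays among the defence genes. In the other defence genes r over 12 arrays ran from 0.679 for MXR1 down to -0.518 for CCS1. Among these were YHB1 at 0.133, GRX5 at -0.048 and SKN7 at -0.398. How r ran over all genes was not tested, so whether these values are unusual is not known. CCS1 had r = -0.518 over 12 arrays and -0.0342 over 10. The mean of the stress genes, as a difference from their mean over all arrays, ran from -0.73 to 0.97 on anaerobic arrays, from -0.27 to 1.31 at 1% oxygen, from -0.36 to 0.50 at 5% and from -0.62 to -0.26 at 20%.

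**Figure D3:**
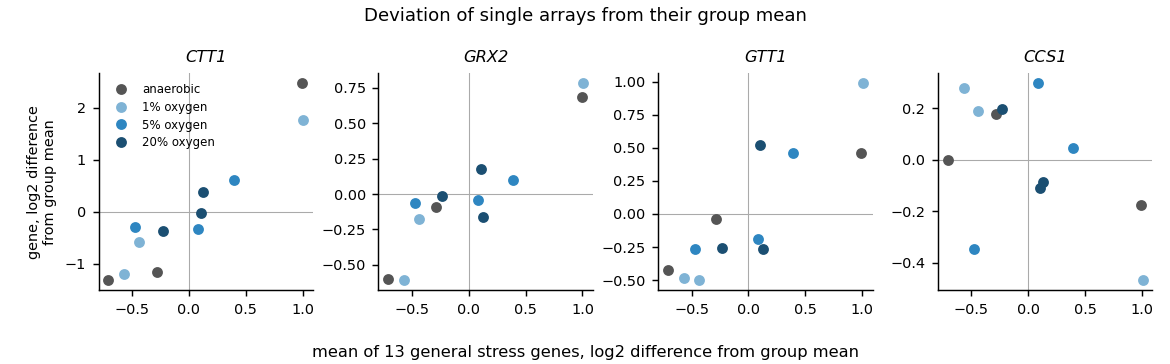
Deviation of each array from its group mean, for 4 genes (vertical axes, log2) against the mean of 13 general stress genes (horizontal axis, log2); points are the 12 arrays, coloured by group. CTT1, GRX2 and GTT1 rise along the axis (r = 0.948, 0.920 and 0.867), with 1 anaerobic and 1 of the 1% oxygen arrays at the far right, and CCS1 shows no such slope without those arrays (r = -0.0342 over the 10 left).

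CTA1, the peroxisomal catalase, read 3.47, 2.71 and 2.27 on the anaerobic arrays, 1.57, 2.05 and 2.67 at 1% oxygen, 1.57, 1.29 and 2.10 at 5%, and 2.60, 2.46 and 2.68 at 20%. These readings are among the lowest of the array, where RMA values carry the least information. It fell at 5% oxygen (-1.16 ± 0.34, adjusted p = 0.0356), and the call needed anaerobic arrays 1 and 2 and 5% oxygen arrays 1 and 2 (adjusted p up to 0.132 without one). CCP1, the mitochondrial cytochrome c peroxidase, which is a heme enzyme as the catalases are, differed by 0.00 ± 0.32 at 20% oxygen and was called nowhere.

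Among the repair enzymes, MXR2, a mitochondrial methionine sulfoxide reductase, read 8.46, 8.42 and 9.02 at 1% oxygen, against 7.94, 7.66 and 7.96 on the anaerobic arrays. It rose there by 1.72-fold (0.78 ± 0.23, adjusted p = 0.0382), and the call needed the 3 anaerobic arrays, 1% oxygen array 3 and 5% oxygen arrays 1 and 2 (adjusted p up to 0.149 without one). At 20% oxygen it differed by 0.08 ± 0.23. MXR1, which repairs the other stereoisomer of methionine sulfoxide, differed by 0.38 ± 0.43 at 20%, with 1 of 3 arrays at 10.22 and the others at 8.82 and 8.63. SRX1, the sulfiredoxin that restores overoxidised peroxiredoxins, was dim and differed by -0.21 ± 0.41.

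YHB1, the flavohemoglobin that uses oxygen to remove nitric oxide, read 11.33, 11.07 and 11.23 on the anaerobic arrays, 11.80, 11.63 and 11.62 at 1% oxygen, 11.56, 11.83 and 11.67 at 5%, and 11.65, 11.60 and 11.52 at 20%. Each of the 9 oxygenated arrays lay above the 3 anaerobic ones, and the oxygenated groups overlapped one another. The differences of 0.47 ± 0.16 at 1%, 0.48 ± 0.16 at 5% and 0.38 ± 0.16 at 20% were not called (adjusted p = 0.0662, 0.0663 and 0.173), and the one at 5% was called without 1% oxygen array 3. With quantile scaling or a trended prior both the 1% and the 5% differences were called. The regulator genes were not called: YAP1 differed by -0.07 ± 0.33 at 20% oxygen and SKN7 by -0.51 ± 0.44 (adjusted p = 0.537), and the activity of these factors, which is set mainly after translation, was not measured.

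For 8 pairs of paralogs or partner enzymes, the difference between both genes on each array was compared over the 4 groups with an exact permutation test of the F statistic over 369600 assignments. None was called after adjustment over the 8 pairs, where the smallest value was for the thioredoxin reductases (exact p = 0.0810, adjusted p = 0.648). TRR1 relative to TRR2 was lower at 20% oxygen than in anaerobic cultures by 0.79 on the log2 scale (-0.79 ± 0.14, standard error, n = 3 each). SOD1 relative to SOD2 changed by 0.40 ± 0.35 (exact p = 0.220), CTT1 relative to CTA1 by -0.48 ± 0.95 (exact p = 0.577), and TRX1 relative to TRX2 by 0.15 ± 0.17 (exact p = 0.757). Without 1% oxygen array 3, TRR1 against TRR2 (adjusted exact p = 0.0299) and GRX3 against GRX4 (adjusted exact p = 0.0171) were called. No pair was called with any other single array left out. With all 12 arrays, GRX3 against GRX4 had an exact p of 0.420 (adjusted exact p = 0.660).

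Several genes that work around these defences were called at 20% oxygen. The further lists were chosen with earlier results of these data known, so their shares beside those of all genes only describe. Of 13 measured genes of glutathione turnover and transport, 4 rose at 20% oxygen, where 3.27% of all genes rose, and 0 fell. At 5% oxygen 3 of 13 were called, GEX1 and the dim GTO3 higher and ECM4 lower. At 1% oxygen ECM4 alone was called, lower. The shares of all genes called were 16.3% and 16.4%. OPT1, which takes up glutathione and peptides, read 8.89, 7.88 and 10.30 at 20% oxygen, against 7.26, 5.52 and 6.67 on the anaerobic arrays, without overlap (2.54 ± 0.64, adjusted p = 0.0330). GEX1, a glutathione exchanger with a near-identical copy, GEX2, with which it may share probes, rose by 2.07 ± 0.50 from a dim level. BPT1, a vacuolar transporter of glutathione conjugates (0.74 ± 0.19), and GTO1, an omega-class glutathione transferase (1.95 ± 0.54), named after their values were seen, also rose. The calls of OPT1 and GEX1 each needed anaerobic arrays 2 and 3 and 20% oxygen arrays 1 and 3, that of BPT1 needed the 3 anaerobic arrays and 20% oxygen array 3, and that of GTO1 needed 8 of the 12 arrays, all but anaerobic array 1, 1% oxygen arrays 2 and 3 and 20% oxygen array 2 (adjusted p up to 0.167 over these genes).

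A list of 11 genes was drawn up for the metal supply of the dismutases. It covers copper and manganese handling more widely, and not every gene on it supplies a dismutase. Of the 11, CTR1 and SMF2 rose at 20% oxygen and 0 fell, beside 3.27% of all genes higher and 4.64% lower. At 5% oxygen 4 of 11 were called, CTR1, SMF2 and MTM1 higher and PMR1 lower, beside 16.3% of all genes. At 1% oxygen SMF2 alone was called, higher, beside 16.4% of all genes. CTR1, the copper importer of the plasma membrane, read 8.13, 8.43 and 8.34 at 20% oxygen, against 7.59, 7.21 and 7.22 on the anaerobic arrays (0.96 ± 0.24, adjusted p = 0.0306). SMF2, which supplies manganese to the mitochondrial dismutase, rose by 0.83 ± 0.21 (adjusted p = 0.0331). Both calls needed anaerobic arrays 2 and 3 and 20% oxygen arrays 2 and 3 (adjusted p up to 0.137 without one). Of 11 genes of Yap1 activation, Yap1 targets and related factors, 1 rose and 0 fell, beside the same shares of all genes: ATR1, a multidrug exporter gene, by 1.41 ± 0.23 (adjusted p = 0.00487), a call kept with each array left out in turn.

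Of 8 peroxiredoxin and glutathione peroxidase genes, TSA2 and DOT5 fell at 20% oxygen, where 4.64% of all genes fell, and 0 rose. TSA2, a cytoplasmic peroxiredoxin, fell to 3.57, 4.20 and 4.02 at 20% oxygen, against 8.68, 7.59 and 8.26 on the anaerobic arrays (-4.25 ± 0.39). DOT5, a nuclear thiol peroxidase, fell by 1.16 (-1.16 ± 0.28), a call that needed the 3 anaerobic arrays and 20% oxygen arrays 2 and 3 (adjusted p up to 0.108 without one). Of 16 genes of NADPH supply, 0 were called by limma at 20% oxygen, beside 7.91% of all genes, and 2 (12.5%) had an unadjusted p under 0.05, against 24.96% of all genes. The smallest adjusted p there was that of YEF1, an NAD kinase gene (0.83 ± 0.28, adjusted p = 0.0852). YEF1 was called higher at 5% and at 1% oxygen, and TAL1 was called lower at 1%. Of the 16 genes, 6.25% were called at 5% and 12.5% at 1%, beside 16.3% and 16.4% of all genes. In heme synthesis 2 of 8 genes fell at 20% oxygen, beside 4.64% of all genes. They were HEM13, already named, and HEM14 (-1.08 ± 0.21), whose call needed anaerobic array 2 (adjusted p = 0.0551 without it). At 5% oxygen HEM13 and HEM14 were called, both lower, and at 1% HEM1, HEM13 and HEM14, all lower. These were 25% and 37.5% of the heme list, beside 16.3% and 16.4% of all genes.

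**Figure D4:**
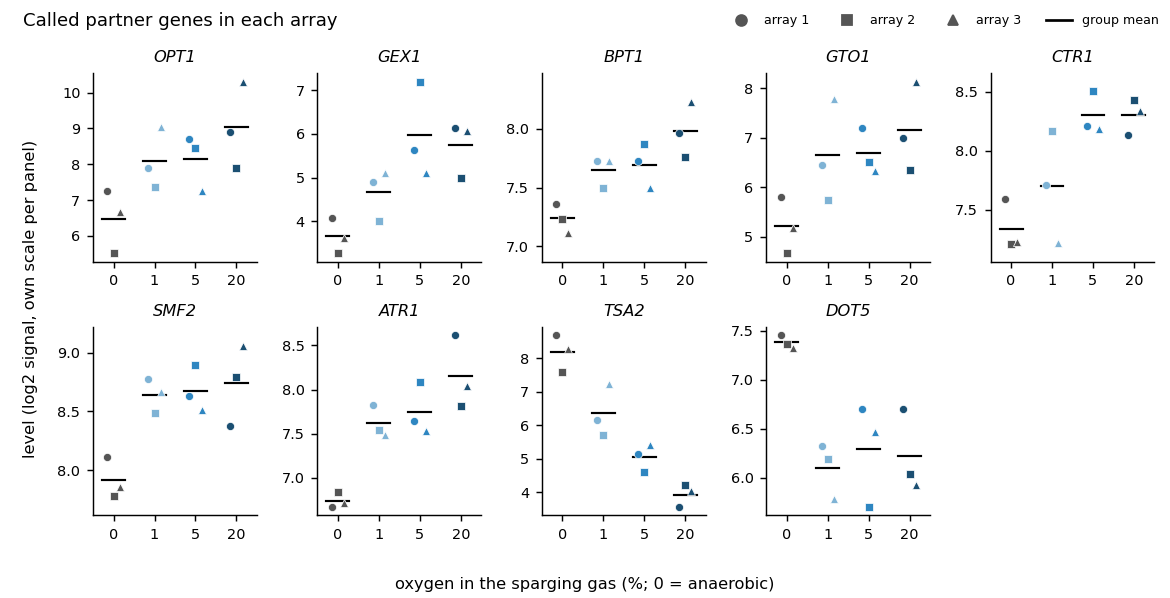
Level in log2 signal (vertical axis, own scale per panel) against oxygen in the gas (0, 1, 5 and 20%) for 9 partner genes called at 20% oxygen; each symbol is 1 array and each bar a group mean of 3. TSA2 steps down at each oxygen level to 3.57 to 4.20 at 20%, while ATR1 and SMF2 lie above their anaerobic arrays at every oxygenated level.

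Of the 13 general stress genes, 1 fell at 20% oxygen and 0 rose, beside 4.64% of all genes that fell. It was HSP42, a small heat shock protein gene (-2.03 ± 0.51, adjusted p = 0.0307), a call that needed anaerobic arrays 1 and 3 and 20% oxygen arrays 1 and 2 (adjusted p up to 0.129 without one). Of 13 genes that mark haploid cells, 12 were dim, and STE2 (1.03 ± 0.24) and MF(ALPHA)1 (3.95 ± 0.46) rose, beside 3.27% of all genes. The call of STE2 needed the 3 anaerobic arrays and 20% oxygen arrays 1 and 2 (adjusted p up to 0.0772 without one). The median difference at 20% oxygen was 0.60 for glutathione turnover and transport, 0.49 for metal supply, -0.27 for the peroxiredoxins and glutathione peroxidases, -0.07 for NADPH supply, 0.13 for the Yap1 list, -0.50 for heme synthesis, -0.31 for general stress and 0.26 for the haploid markers, beside 0.05 over all genes. The part of the stress and haploid genes in the results above was not tested.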

How the data were processed

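Total RNA of 12 chemostat samples was hybridised to Affymetrix arrays, and the deposited log2 values of 5716 probe sets were made with RMA, per the submitters' processing notes. RMA version and options were not given in the sources used here. Probe sets were named through the platform annotation and RefSeq symbols (5498 with 1 gene, 218 with none), and the probe set with the highest mean was kept per gene. Genes in the lowest 25% by mean level, under 5.84, are called dim.

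One limma model (version 3.58.1, R 4.3.3) with 4 group means was fitted over the 12 arrays (8 residual and 4.11 prior degrees of freedom), with Benjamini-Hochberg adjustment over 5449 genes and calls at an adjusted p under 0.05. The trend used scores 0 to 3. The fit was tested on simulated data with known changes at 20% oxygen against anaerobic. It called 50% of changes of 1 on the log2 scale and 88% of changes of 2. Named genes are the 30 members and, per further list, up to 2 rises and 2 falls at 20% oxygen or the smallest p. Members and lists were chosen with earlier results of these data known.

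The labels do not say whether arrays of 1 group are from separate cultures, so p-values measure only their spread, which may be technical, and their number limits the precision. Alternatives were other scalings, filters, priors, scores and left-out arrays.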

Additional observations from a re-analysis of the deposited data

How the results depend on the processing

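The counts of called members were small, so single calls moved them. At 20% oxygen against anaerobic, 1 member instead of 0 was called with a trended prior (SOD1), with the replicate block (GRX8) or when only the groups compared were fitted (CCS1), and 0 to 2 with an array left out. At 5% oxygen, in place of 2, the count was 1 without the lowest 25% of genes, which leaves CTA1 untested, or with the replicate block, 4 with a trended prior or with only the groups compared, and 0 to 4 with an array left out. At 1% oxygen, in place of 2, it was 0 with the replicate block and 0 to 2 with an array left out. The trend called 3 members with quantile scaling, 2 without the lowest 25% of genes or with a trended prior, 0 with either set of dissolved oxygen values as scores or over the 3 oxygenated groups, and 0 to 4 with an array left out, in place of 1. The F test called 0 to 2 with an array left out, and the pair test 0 to 2. The comparisons among oxygenated groups called 0 under all alternatives run. Leaving out anaerobic array 1 and 1% oxygen array 3 together, an alternative chosen after seeing the data, gave 2 called members at 20% oxygen, 0 at 1% and 4 for the trend. The cause of the other moves was not tested. No called value changed sign under any alternative. Deviations of same-numbered arrays correlated over 0.1 in 2 of 18 pairs, so the numbers were not treated as pairs. With the replicate block the calls of CCS1 (trend), CTA1, GRX6, MXR2, BPT1 and SMF2 were lost, and those of GRX8 at 20% oxygen and in the trend were gained. No other call of a member, or of a further list at 20% oxygen, named in the text changed. The calls of further lists at 1% and 5% oxygen are not covered here. Weak signals, such as those of CTA1 and SRX1, limit what RMA values can show.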
